A study of Mus musculus with 5 samples.

Results

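The genes described here are the heat shock chaperones and the DnaJ cochaperones of cultured mouse cardiac fibroblasts (CF). They were chosen by name: every gene called Hsp, Dnaja, Dnajb, Dnajc or Cct with its number, and Tcp1, without Hspg2, a basement membrane proteoglycan, and without Hspa5 and Dnajb9, the ER chaperones best known from the unfolded protein response. The rule found 80 of the 20365 gene names in the tables. They fall into 3 Hsp90 genes, 13 genes of Hsp70 with its Hsp110 relatives, 8 small Hsp genes, 2 genes of mitochondrial Hsp60 and Hsp10, 10 genes of the chaperonin CCT, and 4 DNAJA, 12 DNAJB and 28 DNAJC cochaperones. CF came from hearts of healthy adult male C57Bl/6J mice by collagenase perfusion. They were depleted of endothelial and immune cells with magnetic beads, per the paper's isolation method, and were grown to confluency. The labeled group (3 libraries) received 0.1 mM of the uridine analog 4-thiouridine (S4U) for 12 h, and the unlabeled group (2 libraries) was kept in parallel without it. RNA of both groups was alkylated with iodoacetamide, which makes an incorporated S4U read as C, and the T>C conversion rate, the fraction of covered T that appears as C, reports RNA made during the 12 h. The labels do not say which libraries share a cell preparation, and p-values therefore measure the spread between these libraries only.

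Chaperones bind unfolded proteins and help them to fold, to assemble or to be degraded. Hsp70 does so in cycles of ATP hydrolysis that DnaJ proteins start through their J domain, Hsp90 acts late on kinases, receptors and other clients, small Hsps hold unfolded proteins without ATP, and CCT folds actin and tubulin inside a closed ring. Many of these genes carry heat shock elements, the inverted repeats of GAA bound by the transcription factor Hsf1, and are induced by heat or other protein damage, whereas ER chaperones serve secreted and membrane proteins, which fibroblasts make in quantity as collagen and other matrix.

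Heat shock elements are shown as the textbook sequence of the stress response. The letters GAANNTTCNNGAA and TTCNNGAANNTTC, which are each other's reverse complement and were therefore searched once for both strands, were looked for in RefSeq promoter windows of GRCm38.p6 that reach from 250 bases before to 50 after a gene start. Windows were at hand for 65 of the 80 members, and 4 members held an element in them, with capitals marking the elements and sequences given on the strand of the gene:
Hspd1, chr1:55088053-55088082, - strand: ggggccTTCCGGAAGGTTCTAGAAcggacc
Hspe1, chr1:55088053-55088082, + strand: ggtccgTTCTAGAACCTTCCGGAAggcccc
Dnajb6, chr5:29735846-29735870, + strand: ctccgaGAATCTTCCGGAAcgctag
Hsph1, chr5:149636282-149636306, - strand: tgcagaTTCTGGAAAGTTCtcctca

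Hspd1 and Hspe1, the mitochondrial chaperonin Hsp60 and its lid Hsp10, lie head to head, and the same stretch with 2 overlapping elements stands before both, starting at -144 from the start of Hspd1 and at -89 from that of Hspe1. By the same search, 198 of all 32851 windows (0.603%) held an element, against 6 of 84 windows of the members. Counted by gene, these were 179 of 27025 genes and 4 of 65 members. The member windows are not separate sites, as Hspd1 and Hspe1 share a stretch and overlapping windows repeat those of Dnajb6 and Hsph1. Of a list of 12 stress-inducible genes, 9 had a window and 3 of these an element (Hspd1, Hspe1 and Hsph1). Hspa1a, Hspa1b, Hspb1, Hspb8, Dnaja1 and Dnajb1 had none of these letters in their windows, and Hspa8, Hsp90aa1 and Hsp90ab1 had no window. A match of letters is a description and not a measured binding site.

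Reads come from the 3′ ends of transcripts, and each gene was read on 1 interval, the one with the highest mean transcript level in the labeled libraries. The last 30 bases of 3 intervals (GRCm39, strand of the gene) are shown for the members with the lowest and with a high conversion rate among the 25 that reached 1000 covered T positions in each library, and for the constitutive Hsp70, whose interval is only 85 bases long. Capitals mark the T positions, the only places where a T>C conversion can be counted:
Hsp90b1, chr10:86526705-86526734, - strand: TgTgTaTaaaaaTaaaaaaagaTcccaaaT
Cct2, chr10:116886902-116886931, - strand: aaaaTaaaaaTccagTTacTTagcccTTaa
Hspa8, chr9:40716469-40716498, + strand: aaTaaTaaaacTaTTTaaaTTggcaccaTa

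The libraries held between 506045 (labeled replicate 3) and 1843033 (unlabeled replicate 1) counted reads, and the members took 0.634% to 0.727% of them. Over all intervals the T>C conversion rate was 0.0353 to 0.0358 in the labeled and 0.000652 to 0.00111 in the unlabeled libraries. All 10 fibroblast markers examined had reads in every library and summed to 39221 to 42840 counts per 1000000 counted reads (relative CPM) in the labeled libraries and to 31905 to 35545 in the unlabeled ones. Cardiomyocyte markers summed to 2.54 to 8.37 and 2.17 to 9.03 CPM, with Myl2, Myl3 and Ryr2 at 0, macrophage markers to 80.6 to 139 and 96.6 to 153, endothelial markers to 145 to 256 and 180 to 265, and those of smooth muscle and pericytes to 21.8 to 37.5 and 17.4 to 21.1. These are sums over 10, 9, 8 and 7 markers, of which 1, 8, 7 and 4 had reads in every library. The isolation had included a depletion of endothelial and immune cells. The part of these markers in the results below was not tested.

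Of the 80 members, 67 had reads in every library, 4 (Cct6b, Dnajb13, Dnajc17 and Dnajc22) in some only, and 9 (Cct8l1, Dnajb7, Dnajb8, Dnajc5b, Dnajc5g, Dnajc6, Hspa1l, Hspb3 and Hspb9) in none. A list of 9 members best known from testis, where spermatids use chaperones of their own, holds 6 of these 9 genes without a read, and of that list Dnajb3 alone had reads in every library. Among 4 small Hsp genes enriched in muscle, Hspb3 was at 0, and Hspb2, Hspb6 and Hspb7 had reads in every library at low levels (median of the 4 genes 1.04 CPM as deposited).

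The first comparison asked which of these genes were transcribed during the 12 h of labeling. The T>C conversion rate was higher with S4U for 66 of the 67 members with a covered T in every library (beta-binomial likelihood-ratio test, two-sided, unadjusted threshold of 0.05), and 66 passed after Benjamini-Hochberg adjustment as well. Of all genes 95.2% passed unadjusted and 95% adjusted, so the members' count is near that of the genes at large. The exception was Hspa12b, a distant Hsp70 relative, with 0 conversions in every library. Its labeled libraries held only 38 to 48 covered T positions, counted over all reads, so that a rate of up to 0.0625 to 0.0789 was not detectable at this depth.

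The rate of every labeled library lay above both unlabeled libraries for 65 of 67 members, against 90.4% of all genes, the exceptions being Hspa12b and Dnajc11, a protein linked to the cristae of mitochondria. Dnajc11 had 0 conversions at 75 covered T positions in labeled replicate 1. For comparing rates between genes, a minimum of 1000 covered T positions was set for every library, which left 25 members. At this depth 25 of 25 members were separated from the unlabeled libraries, as were 2106 of 2107 genes (100%). Just inside this limit stood Dnajc1 with 1002 and Cct5 with 1072 covered T positions in their thinnest library and rates of 0.0424 and 0.0354, and just outside stood Hspa8 with 969 and Hspa1b with 882 and rates of 0.0380 and 0.0389.

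The median rate of the 25 members was 0.0403 (quartiles 0.0389 and 0.0424) and that of all 2107 genes covered as deeply was 0.0388 (quartiles 0.0343 and 0.0422). The members' median was 0.0399, 0.0403 and 0.0398 in the 3 labeled libraries, each above the median of all genes in the same library (0.0378, 0.0390 and 0.0388). Of the 25 members, 19 lay above the median of all genes and 6 below it, 14 lay between its quartiles, 4 below the lower and 7 above the upper one. The range was 0.0257 to 0.0502, and the ends of it were taken by chaperones of different compartments.

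**Figure D1:**
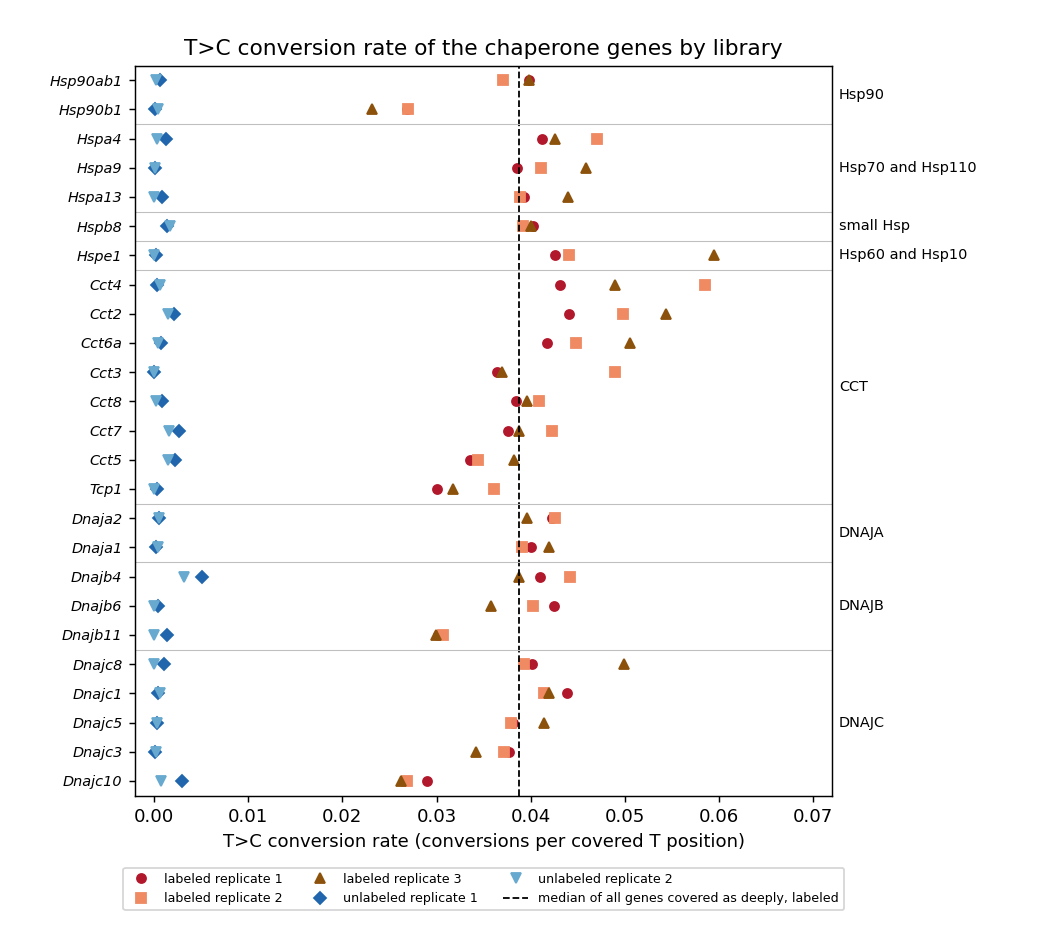
T>C conversion rate (conversions per covered T position, linear axis) of the 25 chaperone genes that reached 1000 covered T positions in each library, grouped by family, with 1 point per library and the median of all genes covered as deeply (0.0388) as a dashed line. The labeled points of every gene lie to the right of its unlabeled points. Hsp90b1, Dnajc10, Dnajb11, Dnajc3, Tcp1 and Cct5 lie left of the line in all 3 labeled libraries. Cct2, Cct4, Cct6a and Hspe1 are among those right of it.

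The 3 lowest mean rates of these 25 members belonged to proteins of the ER lumen. Hsp90b1 (also GRP94), the Hsp90 of the ER, read on chr10:86526705-86526965 (GRCm39, - strand, last exon), had rates of 0.0268, 0.0269 and 0.0232 in the labeled libraries and 1 conversion in 10806 and 4 in 10779 covered T positions in the unlabeled ones. Its mean of 0.0257 ± 0.00213 (SD, n = 3) was above only 11.7% of all genes covered as deeply. Dnajc10 (also ERdj5), a reductase that opens disulfide bonds of misfolded proteins, had rates of 0.0290, 0.0269 and 0.0262, a mean of 0.0274 ± 0.00143 (SD, n = 3). Dnajb11 (also ERdj3), which brings unfolded proteins to the Hsp70 of the ER, had 0.0302, 0.0307 and 0.0299, a mean of 0.0303 ± 0.000411 (SD, n = 3). Of these genes Dnajb11 varied least between labeled replicates and Hsp90b1 most, and in replicates 2 and 3 they were the 3 lowest of all 25 members. In replicate 1 the CCT subunit Tcp1 (0.0300) lay just below Dnajb11.

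The order held against close relatives elsewhere in the cell. Hsp90ab1, the constitutive Hsp90 of the cytosol, had rates of 0.0399, 0.0370 and 0.0398 (mean 0.0389 ± 0.00162, SD, n = 3), so Hsp90b1 was lower in 3 of 3 labeled libraries, with exact 95% binomial intervals that did not overlap in any of them. These intervals, like all those given here, count each covered T position as a separate draw and leave out the spread between libraries. A read covers many such positions (9803 on 309 reads for Hsp90b1 in labeled replicate 1), so the intervals may be too narrow. Dnajb11 lay below Dnajb4, a cytosolic DnaJ protein of the same class (0.0410, 0.0442 and 0.0387), in 3 of 3 libraries, with separate intervals in 2. These pairs were set side by side with the values known, and no test across libraries was made of them.

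Not every ER protein was low. Dnajc3 (also P58IPK), an inhibitor of the kinase PERK and a cochaperone of the lumen, had 0.0377, 0.0372 and 0.0341 (mean 0.0363 ± 0.00191), below the median of all genes but inside its quartiles. Hspa13, an Hsp70-like protein of microsomes, had 0.0393, 0.0389 and 0.0440 (mean 0.0407 ± 0.00282), and Dnajc1, an ER membrane DnaJ protein, had 0.0438, 0.0414 and 0.0419 (mean 0.0424 ± 0.00128), so Dnajc10 lay below Dnajc1 in 3 of 3 libraries, with separate intervals in 2. The 6 ER members of a list of 12 that were covered deeply had a median of 0.0333, 4 below and 2 above the median of all genes, and the other 19 members had a median of 0.0408, 17 above and 2 below. By library, the ER medians were 0.0339, 0.0340 and 0.0320 and those of the other members 0.0401, 0.0411 and 0.0401.

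**Figure D2:**
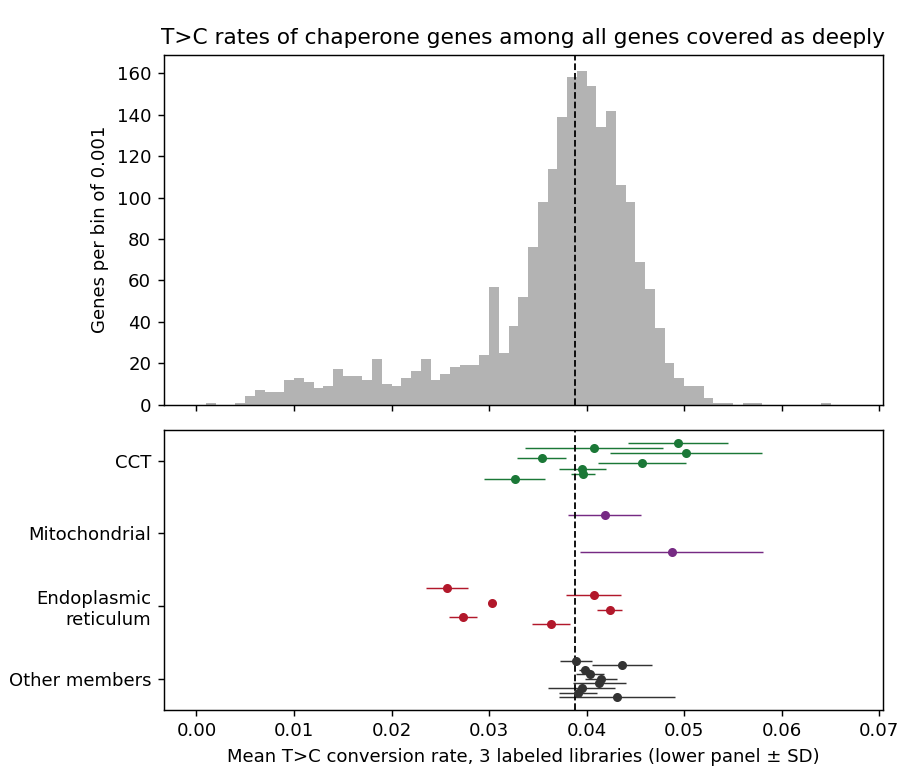
Upper panel, number of genes per bin of 0.001 of the mean T>C conversion rate in the 3 labeled libraries, for all 2107 genes that reached 1000 covered T positions in each library, with their median dashed. Lower panel, the 25 chaperone genes on the same axis as mean ± SD of 3 libraries. Rows are CCT, mitochondrial, ER and other members. In the left shoulder of the distribution, below its lower quartile of 0.0343, lie 3 ER members and the CCT subunit Tcp1.

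CCT, the cytosolic ring of 8 different subunits, held both high and low rates, although its subunits act in a single complex. Cct4 (delta subunit, chr11:22953152-22953336, + strand, last exon) had the highest mean rate of the 25 members, with 0.0431, 0.0585 and 0.0490 (mean 0.0502 ± 0.00780, SD, n = 3). Cct2 (beta, chr10:116886902-116887150, - strand, last exon) followed with 0.0441, 0.0498 and 0.0543 (mean 0.0494 ± 0.00514), and Cct6a (zeta) had 0.0417, 0.0448 and 0.0506 (mean 0.0457 ± 0.00450). Cct4 and Cct2 stood above 99.0% and 98.4% of all genes covered as deeply. The intervals of Cct4 are wide, from 0.0378 to 0.0623 in labeled replicate 3, and the order among these subunits changed between libraries.

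In the middle of the range were Cct3 (gamma) with 0.0364, 0.0489 and 0.0370, Cct8 (theta) with 0.0384, 0.0408 and 0.0396, and Cct7 (eta) with 0.0376, 0.0422 and 0.0388. Their means of 0.0408 ± 0.00707, 0.0396 ± 0.00121 and 0.0395 ± 0.00240 (SD, n = 3) overlap within their spread. Cct5 (epsilon) had 0.0335, 0.0344 and 0.0382 (mean 0.0354 ± 0.00252), and Tcp1 (the alpha subunit CCT1) was the lowest with 0.0300, 0.0361 and 0.0317 (mean 0.0326 ± 0.00313). Like the 3 lowest ER members, Tcp1 lay below the lower quartile of all genes (0.0343). Tcp1 was lower than Cct2 in 3 of 3 libraries with separate intervals in all 3, and lower than Cct4 in 3 of 3 with separate intervals in 2. Of the CCT paralogs, Cct8l1 had no read and Cct6b had reads in some libraries only.

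Of 8 mitochondrial members, 2 were covered deeply, Hspe1 and Hspa9. Hspe1 (Hsp10) had rates of 0.0426, 0.0441 and 0.0595, and the last of these put its mean at 0.0487 ± 0.00935 (SD, n = 3), the largest SD among the 25 members. Hspa9 (mortalin), the mitochondrial Hsp70, had 0.0385, 0.0411 and 0.0459 (mean 0.0418 ± 0.00373), inside the quartiles of all genes. Hspd1 (Hsp60), below the coverage limit with as few as 482 covered T positions in a library, had 0.0348, 0.0415 and 0.0498. In all 3 genes labeled replicate 3, the library with the fewest reads, was highest.

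Hspa4, an Hsp110-type nucleotide exchange factor of Hsp70, had 0.0412, 0.0470 and 0.0426 (mean 0.0436 ± 0.00303, SD, n = 3), the highest of the 3 deeply covered genes of its family, in which Hspa13 was the lowest. Dnaja1 and Dnaja2, the farnesylated class A cochaperones of cytosolic Hsp70, had means of 0.0403 ± 0.00146 and 0.0415 ± 0.00165 and were indistinguishable, Dnaja1 being lower in 2 of 3 libraries with no separate intervals. The small Hsp Hspb8, which works with Bag3 in chaperone-assisted autophagy, had 0.0402, 0.0392 and 0.0401 (mean 0.0398 ± 0.000566). Highest among the deeply covered genes of their classes were Dnajb4 with a mean of 0.0413 ± 0.00274 and Dnajc8, a protein linked to splicing, with 0.0431 ± 0.00594. Neither rank was firm. With the mean unlabeled rate subtracted, Dnajb4 (0.0372) lay below Dnajb6 (0.0393), and without labeled replicate 3 Dnajc8 (0.0397) lay below Dnajc1 (0.0426).

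Stress-inducible members below the coverage limit were less certain. Hsp90aa1, the inducible Hsp90 of the cytosol, had rates of 0.0207, 0.0353 and 0.0395, Hspb1 (Hsp25) had 0.0115, 0.0384 and 0.0311, and Dnajb1 (Hsp40), the partner of inducible Hsp70, had 0.0399, 0.0279 and 0.0222. They rest on as few as 580, 433 and 541 covered T positions in a labeled library. The inducible Hsp70 genes Hspa1a and Hspa1b had means of 0.0371 ± 0.00762 and 0.0389 ± 0.00615 (SD, n = 3) on as few as 164 and 882. Hsph1 (Hsp105), a further Hsp110 protein, had a mean of 0.0415 ± 0.00570, and Hspa8 (Hsc70), the constitutive cytosolic Hsp70, had 0.0380.

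Without S4U, the T>C rate of most members was far below the labeled one. Dnajb4 stood out with 42 of 8285 (0.00507) and 13 of 4051 (0.00321), both below its labeled rates. Cct7 had 29 of 11120 (0.00261) and 5 of 3212 (0.00156). Hsph1 had 6 of 1481 (0.00405) in unlabeled replicate 1 and 0 of 1977 in replicate 2, so the libraries differed. With 0 of 2287 and 0 of 2478, Cct3 allowed a rate of up to 0.00131 and 0.00121. With the mean unlabeled rate subtracted, Dnajb4 had a labeled rate of 0.0372 and Dnajc10 of 0.0255.

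Across the 25 members, the mean rate showed Spearman coefficients of -0.06 with transcript level, -0.05 with interval length, 0.05 with the percentage of T and -0.15 with the number of ATTTA motifs in the interval. Over all 2107 genes, the first 3 were -0.19, 0.22 and 0.32. Members and genes share libraries and depth, and these coefficients are descriptions. Rates of the members correlated between labeled libraries with coefficients of 0.73, 0.72 and 0.61 (n = 25 genes, which are not independent replicates).

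Transcript levels were compared next. As each transcript gives 1 tag at its 3′ end, reads were not divided by length, and levels between genes are per tag. The deposited CPM uses a number of reads per library that is 7.58 to 28.9 times the reads counted, so that labeled replicate 3 is low for nearly every gene, and levels are therefore also given as CPM relative to the counted reads. In deposited CPM the members had a median of 3.86, against 0.451 for all genes. These medians include genes without a read in any library, which were 9 of the 80 members and 6028 of all 20365 genes. Fewer cells of a type and less RNA per cell cannot be told apart in such bulk samples.

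The highest member was Hsp90ab1 with 39.4 ± 21.0 deposited CPM (SD, n = 3). Relative to counted reads it had 445, 501 and 490.1 CPM in the labeled and 375 and 436 in the unlabeled libraries, so the labeled libraries were slightly higher without overlap. Hspa9 (27.2 ± 13.2 deposited CPM) and Hsp90b1 (25.2 ± 7.51) came next, with 280.4, 383 and 354 against 254 and 374 relative CPM for Hspa9 and 196, 382 and 502 against 186 and 357 for Hsp90b1. In both genes the libraries numbered 1 of both groups were the low ones. Hspb8, Cct6a, Cct2, Hspa4, Dnaja1, Cct7 and Dnajc3 completed the 10 highest, between 24.8 ± 20.2 and 21.2 ± 18.5 deposited CPM. These SDs include the scaling that all genes of a library share, so they cannot show whether these genes differ from each other. The order depends on the scale. In mean relative CPM, Hsp90b1 (359.9 ± 154) stood above Hspa9 (339 ± 52.9) and Tcp1 (241 ± 53.0) above Hspa4 (239 ± 85.3), differences within their spread.

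**Figure D3:**
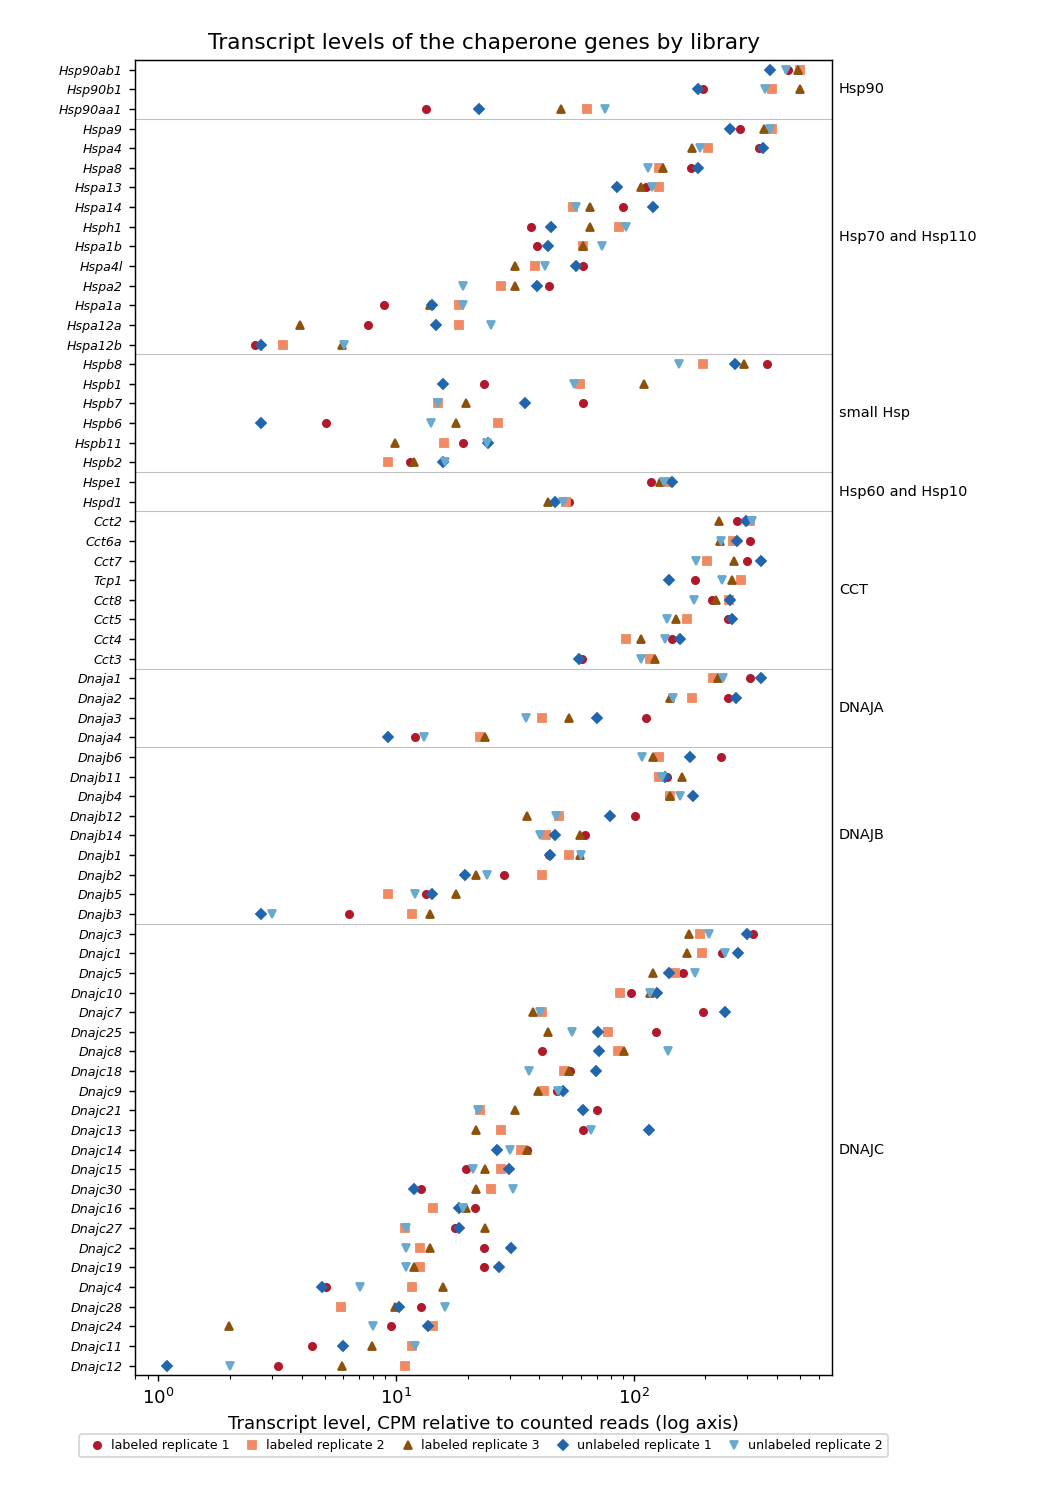
Transcript level (CPM relative to counted reads, log axis) of the 67 chaperone genes with reads in every library, grouped by family and ordered within it by the labeled mean, with 1 point per library. Labeled and unlabeled points intermix in most rows, Hsp90ab1 is the top row, and Hsp90aa1 and Dnajc7 show points of replicates 1 set apart from the other 3.

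Summed by family, the 8 CCT genes with reads in every library and the 2 paralogs took the largest share, 1666 ± 72.3 relative CPM (SD, n = 3) or 24.7% of the sum over members. DNAJC (1281 ± 273), Hsp70 with Hsp110 (1131 ± 75.5) and Hsp90 (881 ± 202) followed, then DNAJB (667 ± 87.1), DNAJA (527 ± 134), small Hsps (422 ± 87.5) and Hsp60 with Hsp10 (179 ± 11.9). The CCT sum was among the steadiest, with 1728, 1683 and 1587 in the labeled and 1781 and 1526 in the unlabeled libraries.

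Subunits that work in fixed ratios did not have equal tag counts. The highest of the 8 CCT subunits had 5.14, 3.31 and 2.48 times the level of the lowest in the labeled and 5.84 and 2.93 times in the unlabeled libraries. Cct3 or Cct4 was the lowest in every library, Cct3 with 60.3, 117 and 123 against 58.6 and 107 relative CPM and Cct4 with 145, 92.9 and 107 against 157 and 136. The lid Hspe1 had 2.23, 2.71 and 2.95 times the level of its ring Hspd1 in the labeled and 3.09 and 2.68 times in the unlabeled libraries. Hsp90ab1 exceeded Hsp90aa1 by 33.4, 7.88 and 9.92 times with and 16.9 and 5.79 times without S4U, a ratio that was largest in the libraries numbered 1. Stretches of 50 bases that also occur elsewhere in the genome made up 89.0% of the interval of Hsp90aa1 and 26.6% of that of Hsp90ab1. For Hspd1 and Hspe1 these shares were 70.7% and 60.1%. Their part in these ratios was not tested.

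Reads of labeled and unlabeled libraries were then compared. None of the 65 members that passed the filter on low counts was called higher or lower in reads (edgeR quasi-likelihood test, Benjamini-Hochberg adjusted threshold of 0.05). Among all 9807 genes 0 were called higher (0%) and 0 lower (0%). At an unadjusted threshold 1 member was higher (2.84% of all genes) and 1 was lower (3.12% of all genes). DESeq2 called 0 members, and 13 genes higher and 7 lower over all. The members' log2 fold changes had a median of 0.03, with 34 above and 31 below 0, beside a median of 0.02 over all genes.

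**Figure D4:**
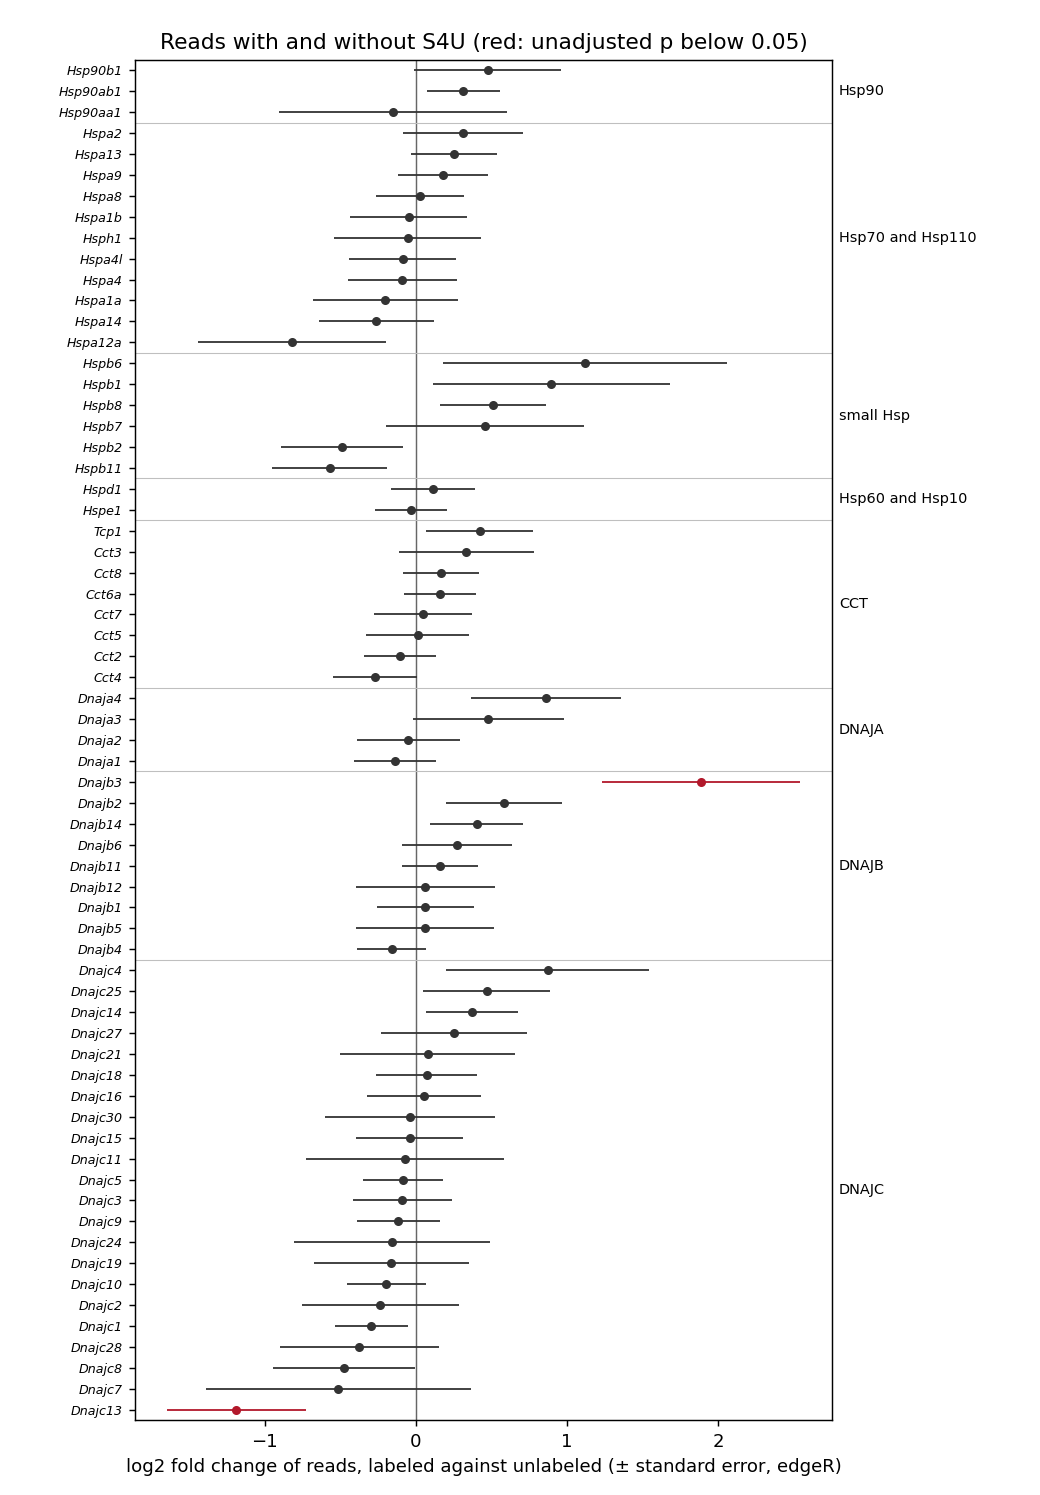
log2 fold change of reads in labeled against unlabeled libraries (edgeR, bars ± standard error) of the 65 chaperone genes tested, grouped by family and ordered within it. Points lie on both sides of 0, and the 2 in red, Dnajb3 and Dnajc13, had an unadjusted p below 0.05 but not an adjusted one.

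The list of 12 stress-inducible genes showed no common direction, with 6 log2 fold changes above and 6 below 0, a range of -0.20 to 0.90 and none past the unadjusted threshold. Hspa1a, the gene most strongly induced by heat in most cells, had 8.88, 18.4 and 13.8 relative CPM with and 14.1 and 19.1 without S4U, and its near-identical copy Hspa1b had 39.3, 61.1 and 61.3 against 43.4 and 73.3. Groups overlapped in both genes, and labeled replicate 1 was lowest in each. Hspa1b exceeded Hspa1a by 3.08 to 4.43 times in the 5 libraries.

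Hsph1 had 36.8, 87.0 and 65.2 relative CPM with and 45.0 and 92.4 without S4U, and Hsp90aa1 had 13.3, 63.6 and 49.4 against 22.2 and 75.3. Hspb1 had 23.5, 59.4 and 111 against 15.7 and 56.2. In these 3 genes the libraries numbered 1 of both groups were lowest, whether labeled or not, and the groups overlapped. Dnaja1 (308, 215 and 225 against 344 and 237) and Hspa8 (174, 127 and 132 against 187 and 114) were instead highest in the libraries numbered 1.

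Dnajb1 had 43.8, 53.6 and 59.3 relative CPM with and 44.5 and 60.2 without S4U, and Hspb8 had 363, 195 and 290.5 against 265 and 156. Hspd1, with an element in its promoter window, had 53.3, 51.9 and 43.5 against 46.7 and 50.2, and Hspe1, with the same element, 119, 141 and 128 against 144 and 135. Groups overlapped in each of these 4 genes, and in Hspd1 and Hspe1 all 5 libraries lay close together. Hsp90ab1 had the only groups of the list that did not overlap, with a log2 fold change of 0.31.

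**Figure D5:**
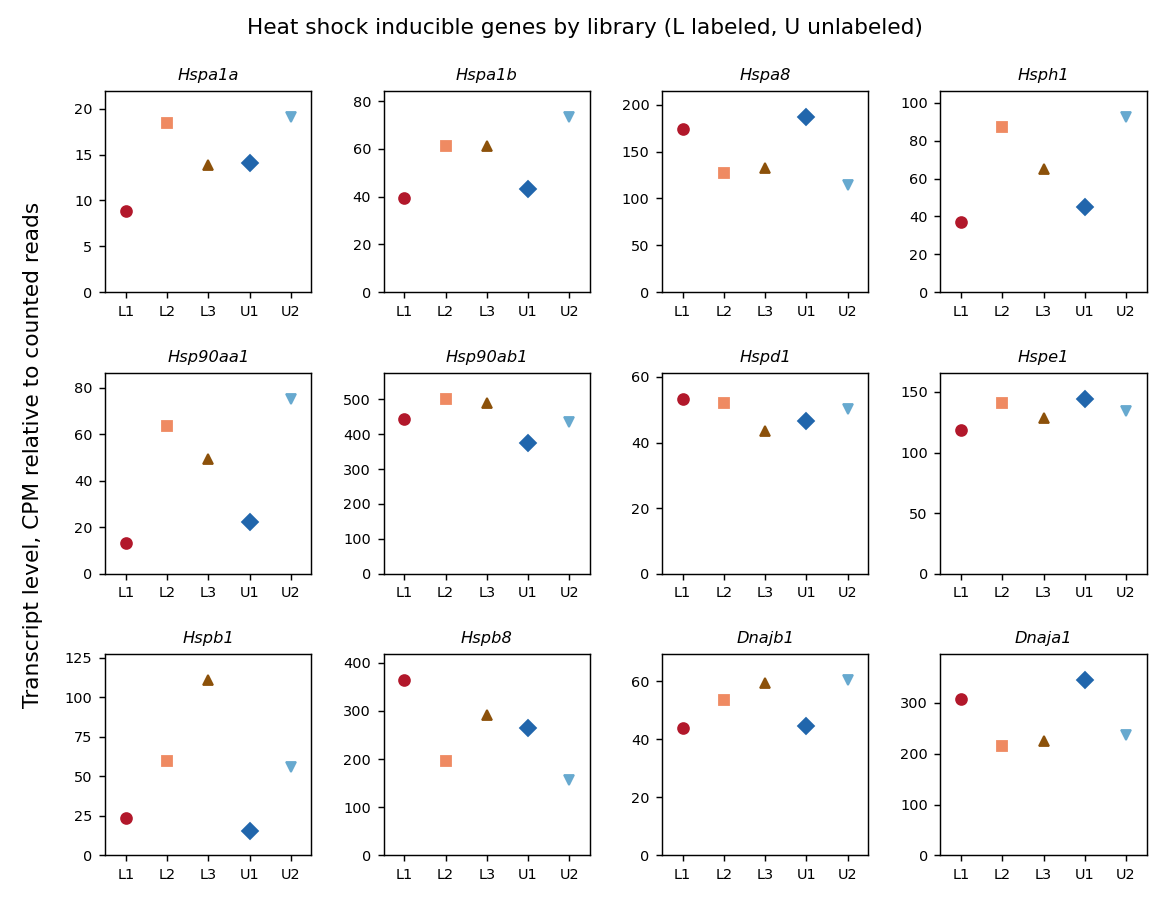
Transcript level (CPM relative to counted reads, linear axes from 0) of the 12 heat shock inducible genes in the 3 labeled libraries (L1 to L3) and the 2 unlabeled ones (U1 and U2), 1 point per library. Labeled and unlabeled points overlap in 11 panels, Hsp90ab1 excepted, and in Hsp90aa1 and Hsph1 the points L1 and U1 are both low.

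Dnajb3, a cochaperone best known from testis, had 10, 14 and 7 reads with and 5 and 3 reads without S4U, or 6.34, 11.7 and 13.8 against 2.71 and 3.01 relative CPM. All labeled libraries were higher, on few reads, and its log2 fold change of 1.89 (SE 0.66) had an adjusted p of 0.731 (edgeR, Benjamini-Hochberg). Dnajc13, an endosomal DnaJ protein, had 60.9, 27.6 and 21.7 relative CPM with and 116 and 66.3 without S4U. All labeled libraries were lower, although labeled replicate 1 was close to unlabeled replicate 2, and its log2 fold change of -1.19 (SE 0.46) had an adjusted p of 0.792 (edgeR, Benjamini-Hochberg).

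Labeled libraries lay above both unlabeled ones without overlap for 3 of the 65 members (Dnajb3, Dnajc14 and Hsp90ab1), against 8.2% of all genes, and below them for 7 (Dnajb4, Dnajc1, Dnajc9, Dnajc10, Dnajc13, Hspb2 and Hspb11), against 13.1% of all genes. The members' shares of 4.62% and 10.8% were thus no larger than those of genes at large. Dnajc7, a cochaperone that binds Hsp70 and Hsp90, varied widely between libraries of the same group, with 196, 41.0 and 37.5 relative CPM with and 243 and 40.2 without S4U. The libraries numbered 1 of both groups were the high ones, and the groups overlapped.

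Other genes of the pathway, which regulate chaperones or work beside them, were read in the same way. All 35 of the list were tested for reads, 26 had log2 fold changes above 0 and 9 below, 3 passed the unadjusted threshold as higher (2.84% of all genes) and none as lower (3.12% of all genes), and 0 passed the adjusted one in edgeR. Over all genes 5072 log2 fold changes were above and 4735 below 0. The 3 were Serpinh1 (Hsp47, the collagen chaperone of the ER) with 2651, 2854 and 3346 against 2069 and 1876 relative CPM, Bag2 (a cochaperone that inhibits ubiquitination by Chip) with 74.2, 62.8 and 75.1 against 52.1 and 39.2, and Pfdn6 (a prefoldin subunit) with 8.88, 12.6 and 19.8 against 5.97 and 4.02. Their labeled libraries were higher without overlap, with log2 fold changes of 0.66, 0.70 and 1.41. Hsf1, the regulator of the heat shock response, had a log2 fold change of 0.53 (SE 0.43) and overlapping groups.

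The 9 genes of this list that were covered deeply had a median T>C rate of 0.0401, close to that of the members. The lowest of them was Serpinh1 with 0.0230, 0.0226 and 0.0199 (mean 0.0218 ± 0.00170, SD, n = 3). Next came Hsbp1, a binding protein of Hsf1 and not of the ER, above 15.2% of all genes covered as deeply and, like Serpinh1, below their lower quartile. The highest was St13 (Hip), which binds Hsp70, with 0.0454 ± 0.00461. Bag3, the partner of Hspb8, had 0.0399 ± 0.00555 and Cryab (alpha B-crystallin), a small Hsp by structure, had 0.0406 ± 0.00283. Stip1 (Hop), which joins Hsp70 to Hsp90, and Trap1, the mitochondrial Hsp90, were below the coverage limit with 0.0353 ± 0.00998 and 0.0383 ± 0.0134.

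The intervals set limits on single genes. Of the 80 intervals, 73 lay in a last exon and 7 past or across an annotated end (Dnajb4, Dnajb11, Dnajc1, Hspa1b and Hspb2 among the genes above). An exon of another gene on the opposite strand overlapped 20 (Tcp1, Cct8, Hsp90ab1, Dnaja1 and Dnajc1 among the genes above). None shared an exon with another gene on its own strand, Hspb11 being annotated as Ift25. Stretches of 50 bases that also occur elsewhere in the genome made up 94.0% of the interval of Hspb1, 89.0% of Hsp90aa1, 85.9% of Dnajb6, 77.8% of Hspa8, 70.7% of Hspd1 and 60.1% of Hspe1, and counts of these genes are uncertain to that extent. Tcp1 and Cct4 reached 45.4% and 34.6%, Hsp90ab1 26.6% and Hsp90b1 22.2%. Their part in the levels and rates was not tested. More than 1 interval was present for 32 members. Dnajb6, a cochaperone that keeps polyglutamine proteins soluble, had a second interval apart from the first, chr5:29990112-29991476 (+ strand), with a rate of 0.0324 ± 0.00879 against 0.0395 ± 0.00342 on the interval used (SD, n = 3) and 4.04 against 15.2 deposited CPM. On a shorter interval inside the one used, Dnajb11 had 0.0268 ± 0.00604, also below the lower quartile of all genes.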

How the data were processed

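SLAMseq libraries of CF (3 labeled, 2 unlabeled) were analysed. Per the labels and the methods, the authors prepared 3′ mRNA libraries with unique molecular identifiers, ran SLAM-DUNK 0.4.3 on mm39, collapsed duplicates by UMI-tools and counted on 3′ UTR intervals, whose source is not given in the sources used here. The authors deposited raw counts of reads, converted reads, covered T positions and conversions, the T>C rate as a fraction of covered T positions, and CPM, for 97442 rows (40428 distinct intervals) per library. All deposited multimapping counts of the labeled libraries were 0, and no column belonged to another sample.

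Repeated rows were dropped and the interval with the highest mean deposited CPM in labeled libraries was kept per gene. Coordinates, counted from 1, and T contents were read on GRCm39. The T>C rate was tested with a beta-binomial likelihood-ratio test (chi-square, 1 degree of freedom, liberal with few libraries) and read counts with edgeR 4.0.16 (TMM, filterByExpr, quasi-likelihood, Benjamini-Hochberg). DESeq2 1.42.0 and limma 3.58.1 (R 4.3.3), other coverage and count filters, intervals and scales, a replicate block and omission of each library were alternatives. Python 3.11.15, numpy 2.4.6, pandas 2.3.3, scipy 1.17.1, numba 0.67.0 and matplotlib 3.10.9 were used, and the tests were tried on simulated data. An exact permutation test of 3 against 2 libraries cannot go below p = 0.1, so none was run. Counts of 0 are given with the rate that 3 conversions would make.

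Members and lists were chosen with earlier results of these data known. Members named with values are those of the inducible list, of CCT and Hsp90, the highest and lowest rates overall and per family, the 10 highest levels, those past the unadjusted read threshold, those at the coverage limit and the highest rates without S4U. Of the pathway list, the unadjusted calls, the extreme rates and 6 chosen genes are named. Dnajc7, Dnajc11, Dnaja2, Hspa12b, Hsbp1, genes with groups that do not overlap and the pairs of rates were named after their values were seen.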

Additional observations from a re-analysis of the deposited data

How the results depend on the processing

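The count of 66 members with a raised T>C rate fell to 25 where at least 1000 covered T positions were required, which removes genes, was 66 with limma, with and without the replicate block, and lay between 64 and 65 with one library left out. No member was called in reads by edgeR or DESeq2 under any other setting, leaving out each library included (0 to 0 higher and 0 to 0 lower). With the replicate number as a block, a pairing the labels do not state, edgeR called 3 members higher (Dnaja3, Dnajc25 and Hspb8) and 2 lower (Dnajc13 and Dnajc8), and 528 and 618 genes over all, on 1 residual degree of freedom; among named genes Dnajc13 (-0.98), Serpinh1 (0.53) and Bag2 (0.64) then passed. Same-numbered libraries deviated together (r = 0.78 and 0.64 over 9807 genes), but so did labeled replicate 3, which has no partner, with unlabeled replicate 2 (0.48), and with only 2 unlabeled libraries these values depend on each other.

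The median log2 fold change of reads was 0.03 and ranged from 0.0036 to 0.16 with one library left out, 0.16 without unlabeled replicate 1, where the lone unlabeled library is assumed to vary like the others. The median rate of 0.0403 became 0.0395 at 100 covered T positions, 0.0323 at 5000 (2 members, all genes 0.0355), 0.0393 after subtraction of the unlabeled rate, and ranged from 0.0397 to 0.0405 with one labeled library left out; as a share of reads with a conversion it was 0.552 (55.2%, all genes 52.7%). Family medians were 0.0323 for Hsp90, 0.0418 for Hsp70 with Hsp110, 0.0398 for small Hsps, 0.0487 for Hsp60 with Hsp10, 0.0409 for DNAJA, 0.0395 for DNAJB and 0.0392 for DNAJC, some over 1 gene. The median level of 3.86 CPM was 42.5 relative to counted reads and 2.28 to 5.04 with one labeled library left out. The median log2 fold change and those of Bag2, Dnajb3, Dnajc13, Pfdn6 and Serpinh1 kept their sign under the alternatives run. The members' median rate, above that of all genes at 1000 covered T positions, lay below it at 5000, and by share of reads Hsp90 (53.9%) lay above and DNAJC (42.6%) below all genes, the reverse of their rates. Depth limits rates to 25 of 80 members, and the spread of Cct3 and Hspe1 rests on labeled replicates 2 and 3 respectively.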
